A study of Mus musculus with 2 samples.

Results

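Non-classical monocytes were picked out of mouse spleen single-cell libraries by their transcripts, and 98 of 18316 kept cells met the rule. The members were chosen by measured counts of a few genes, so those counts describe the choice and are no finding. A member had at least 2 UMIs (unique molecular identifiers, each counting 1 captured transcript) summed over Treml4, Ace, Cd300e and Adgre4, and at least 1 UMI of the myeloid lysozyme gene Lyz2. It also had no UMI of the lymphocyte genes Cd79a, Ms4a1, Cd3d, Cd3e or Cd3g or of the plasmacytoid dendritic cell gene Siglech. Its UMIs stayed under 20 for S100a8 and S100a9 together and under 5 for C1qa, C1qb and C1qc together. To be kept, a cell needed 500 or more UMIs over 200 or more genes, with less than 10% of its UMIs from mitochondrial genes.

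Circulating monocytes of the mouse fall into Ly6C-high classical cells, which enter inflamed tissue, and Ly6C-low non-classical cells. The non-classical cells patrol the inner face of blood vessels and clear damaged endothelium and debris. They arise from classical monocytes, depend on the nuclear receptor Nr4a1 and survive through signals of the fractalkine receptor Cx3cr1 and the growth factor receptor Csf1r. The spleen holds a reservoir of both kinds. Of the genes in the rule, Treml4 codes for a receptor that binds dying cells, Ace for angiotensin-converting enzyme, Cd300e for an activating receptor of myeloid cells and Adgre4 for an adhesion G protein-coupled receptor related to F4/80.

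The study set splenocytes of MEFV M694I knock-in mice beside those of age-matched wild-type mice. The MEFV gene encodes the inflammasome sensor pyrin, and M694I is a substitution known from human familial Mediterranean fever. Each genotype had 1 library, named in its title for 1 mouse, with no treatment named. Spleens were mashed and freed of red cells, and no sort for monocytes was described. With 1 library per genotype no difference between genotypes could be tested, so the intervals given are 95% intervals that cover counting error only. Differences between 1 animal and another are not covered by them.

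The knock-in library held 9000 barcodes and 25193274 UMIs, and the wild-type library 10449 barcodes and 32797052 UMIs. Kept cells had a median of 2049 UMIs in the knock-in library and 2557 in the wild-type library. The shallower knock-in depth moves with every comparison between genotypes, and results were recomputed with wild-type counts thinned to the knock-in depth and with every cell thinned to 1000 UMIs. Of the barcode sequences, 27 occurred in both libraries, and 0 of them belonged to a member. Mefv itself (chr16:3707218-3718097, minus strand, GRCm38) had 6 UMIs in 6 knock-in members and 18 UMIs in 8 wild-type members. As UMIs scaled to a common total of 1000000 (CPM), that is 49.4 in the knock-in and 90.7 in the wild type, a log2 ratio of -0.88 with an interval of -2.50 to 0.52. Ly6c2 monocytes had 7 Mefv UMIs in the knock-in and 21 in the wild type. These counts are too few to place the level of Mefv in either genotype, and a point substitution cannot be checked from them.

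The members numbered 46 in the knock-in library and 52 in the wild-type library. As shares of kept cells these were 0.536% in the knock-in (Clopper-Pearson interval 0.393% to 0.714%) and 0.534% in the wild type (0.399% to 0.700%). The ratio of the shares was 1.00, with an interval of 0.660 to 1.52. A difference smaller than that interval was not detectable with these numbers of cells. Ly6c2 monocytes, cells within the same limits that had at least 2 Ly6c2 UMIs and no UMI of the rule genes, numbered 36 in the knock-in and 45 in the wild type. There were 1.28 non-classical cells per Ly6c2 monocyte in the knock-in and 1.16 in the wild type, a ratio of 1.11 (0.587 to 2.09).

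The members together carried 121537 UMIs in the knock-in and 198444 in the wild type. Knock-in members ranged from 511 to 12005 UMIs with a median of 2164.5, and wild-type members from 922 to 13219 with a median of 2737.5. Ly6c2 monocytes were deeper, at a median of 4481.5 UMIs in the knock-in and 5231 in the wild type. No single cell held more than 9.88% of the knock-in members' UMIs or 6.66% of the wild-type members' UMIs.

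The genes of the rule were thinly sampled. Treml4 gave 29 UMIs in 20 knock-in members and 34 UMIs in 26 wild-type members. Ace was found most widely, with 57 UMIs in 33 knock-in cells and 91 UMIs in 40 wild-type cells. Adgre4 gave 53 UMIs in 31 knock-in cells and 56 UMIs in 32 wild-type cells, and Cd300e 14 UMIs in 10 knock-in cells and 12 UMIs in 10 wild-type cells. Most members carried more than 1 of the genes: 37 of the knock-in and 38 of the wild-type members had at least 2, and Ace and Adgre4 with no other rule gene was the most frequent set, in 10 knock-in and 11 wild-type cells. All 4 genes occurred together in 0 knock-in and 2 wild-type members. In B cells, which do not use these genes, each was found in at most 0.0735% of knock-in cells (median depth 1873 UMIs). In wild-type B cells (median depth 2358 UMIs) it was at most 0.128%. The higher shares in members follow from the rule and are no finding.

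The summed count of the rule genes stood at its minimum of 2 in 18 knock-in and 21 wild-type members. Another 40 knock-in and 31 wild-type cells met every other limit with a sum of 1 and stayed outside. To describe the members by genes the rule did not use, the UMIs of Cx3cr1, Fcgr4, Spn, Itgal, Nr4a1, Ear2, Pglyrp1, Gngt2, Eno3, Ceacam1, Clec4a1 and Clec4a3 were summed. These 12 genes gave 5291 CPM in knock-in members (4889 to 5716) and 3563 CPM in wild-type members (3305 to 3835). In Ly6c2 monocytes they gave 1098 CPM in the knock-in and 1120 CPM in the wild type. Members with a sum of exactly 2 were at 6104 CPM in the knock-in and 2934 CPM in the wild type, and the cells just outside at 2236 CPM in the knock-in and 1941 CPM in the wild type. The 12 genes were thus several-fold higher in members than in Ly6c2 monocytes of the same library, and intermediate in the cells just below the limit.

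Residual Ly6c2 marked a small group within the members. A Ly6c2 UMI was present in 9 of 46 knock-in and 11 of 52 wild-type members. In these, the 12 genes were at 3316 CPM in the knock-in and 2673 CPM in the wild type, against 6128 CPM in knock-in and 4027 CPM in wild-type members without one. The scavenger receptor gene Cd36 was at 55.3 CPM in knock-in and 14.7 CPM in wild-type members with a Ly6c2 UMI, against 551 CPM in knock-in and 376 CPM in wild-type members without one. Lyz2 ran the other way, at 12270 CPM with and 5507 CPM without a Ly6c2 UMI in the knock-in, and at 11735 CPM with and 5017 CPM without in the wild type. Plac8, a gene of many immature myeloid cells, was at 3123 CPM with and 1769 CPM without in the knock-in, and at 3613 CPM with and 1250 CPM without in the wild type. Lyz2 is a gene of the rule, so its values are no finding. The members with a Ly6c2 UMI were thus lower for the 12 genes and Cd36 and higher for Plac8 in both libraries. They were also deeper, at a median of 4012 UMIs with and 1742 without in the knock-in, and 5574 with and 2347 without in the wild type. The part of depth in these differences was not tested.

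A second small group carried antigen-presentation genes. The class II gene H2-Aa reached at least 5 UMIs in 7 knock-in and 8 wild-type members, a limit chosen after the values had been seen. These cells held 222 of the 229 H2-Aa UMIs of knock-in members and 303 of the 317 of wild-type members. They also held 15 of 15 knock-in and 15 of 19 wild-type UMIs of 8 conventional dendritic cell markers (Flt3, Xcr1, Clec9a, Cd209a, Zbtb46, Dpp4, Clec10a and Tlr3). Their 12 non-classical genes summed to 1756 CPM in the knock-in and 1732 CPM in the wild type, between Ly6c2 monocytes and the other members, which were at 6907 CPM in the knock-in and 4357 CPM in the wild type. In these cells the label therefore rested mainly on the rule genes, with a median sum of 3 in both libraries. They were deep cells, at a median of 4261 UMIs in the knock-in and 5903 in the wild type. Together they held 38145 of the 121537 UMIs of knock-in members and 60053 of the 198444 UMIs of wild-type members. The sums of the class thus draw on them far beyond their number, and several results are given below with and without them.

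**Figure D1:**
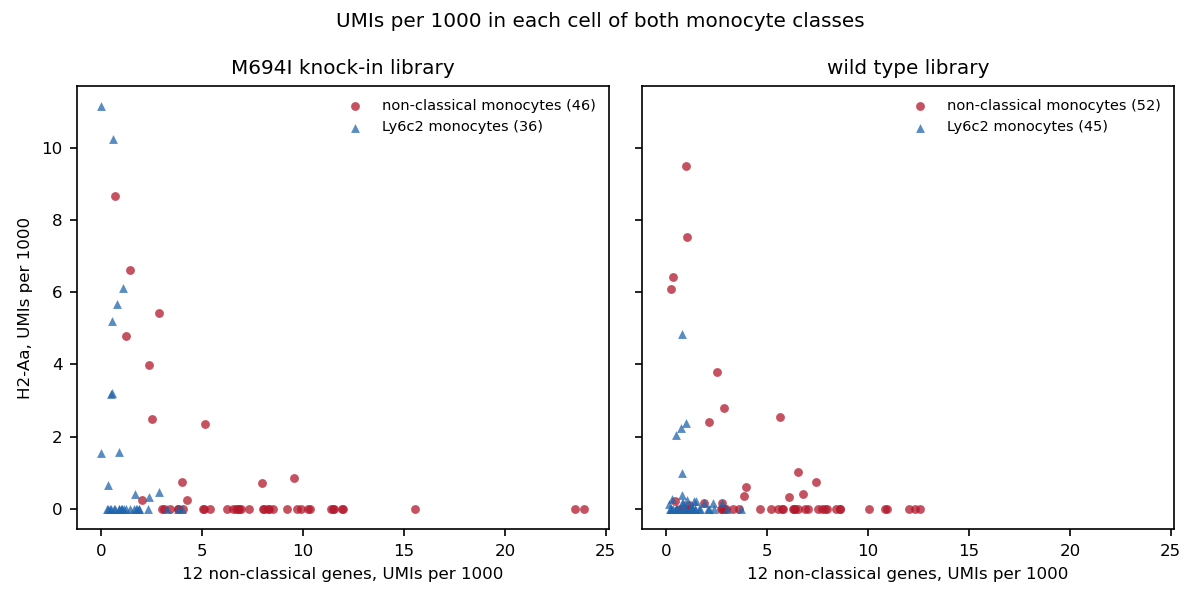
Each point is 1 cell, for non-classical and Ly6c2 monocytes of the knock-in (left) and wild-type (right) libraries: UMIs of 12 non-classical genes outside the rule (x axis) and of the class II gene H2-Aa (y axis), both per 1000 UMIs of the cell. On the x axis members reach 23.9 per 1000 in the knock-in and 12.6 in the wild type, while Ly6c2 monocytes reach 4.01 in the knock-in and 3.70 in the wild type.

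Markers of other cells were also counted. Among members, markers of natural killer cells had 0 UMIs in the knock-in and 1 in the wild type, and platelet and basophil markers had 0 in both. Neutrophil markers had 9 knock-in and 18 wild-type UMIs, and B cell markers 8 in the knock-in and 9 in the wild type. The rule itself barred the B cell markers Cd79a and Ms4a1 and capped the neutrophil markers S100a8 and S100a9. These low counts are thus partly set by the rule. Plasma cell markers gave 39 UMIs in 17 knock-in members and 44 UMIs in 26 wild-type members, with Sdc1 and Derl3 at 0 in both. Plasmacytoid dendritic markers gave 31 UMIs in 15 knock-in and 41 UMIs in 24 wild-type members, with Siglech (barred by the rule), Ccr9, Cox6a2 and Klk1 at 0 in both. Macrophage markers, Hmox1 for the most part, gave 47 UMIs in the knock-in and 92 in the wild type. Of the 67 wild-type Hmox1 UMIs, 35 lay in 1 cell. Spic had 1 UMI in knock-in members and 20 UMIs in 8 wild-type members. Of the macrophage markers, C1qa, C1qb and C1qc were capped by the rule. The part of all these cell types in the results was not tested. Doublet calling marked 1 knock-in and 0 wild-type members.

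The first question was how non-classical monocytes differ from the Ly6c2 monocytes of the same spleen. Genes were measured where they had a mean of at least 50 CPM and at least 30 UMIs over both classes, and were counted where they differed by more than 2-fold. In both libraries, 1369 genes were measured, of which 45 (3.29%) were higher and 31 (2.26%) lower in non-classical monocytes in each library. Within 1 library more genes passed: 122 of 1396 (8.74%) were higher and 94 (6.73%) lower in the knock-in library, and 164 of 2155 (7.61%) higher and 87 (4.04%) lower in the wild-type library. None of the 1369 went past 2-fold in opposite directions. The median log2 ratio over all measured genes was -0.04 in the knock-in library and -0.06 in the wild-type library.

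Nr4a1, the transcription factor on which non-classical monocytes depend, was at 773 CPM in knock-in and 539 CPM in wild-type members, against 223 CPM in knock-in and 142 CPM in wild-type Ly6c2 monocytes. Its log2 ratio was 1.79 (1.24 to 2.38) in the knock-in library and 1.92 (1.36 to 2.52) in the wild-type library. Itgal, the alpha chain of the LFA-1 integrin used for crawling on endothelium, was at 609 CPM in knock-in and 660 CPM in wild-type members, against 117 CPM in knock-in and 118 CPM in wild-type Ly6c2 monocytes, with log2 ratios of 2.37 in the knock-in and 2.49 in the wild-type library. Both genes thus separated the classes by a similar amount in each library, with intervals that overlapped between libraries.

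Of 24 listed non-classical genes, 15 were measured in both libraries and 7 of them were higher past 2-fold in both, with none lower. The median log2 ratio of the 15 was 1.54 in the knock-in and 0.97 in the wild-type library. Besides Nr4a1 and Itgal these were Spn, Cx3cr1, Pglyrp1, Gngt2 and Cd36. Spn codes for the sialoglycoprotein CD43, Gngt2 for a G protein gamma subunit and Pglyrp1 for a peptidoglycan-binding protein. In the knock-in library the log2 ratio was 2.89 for Spn, 1.28 for Cx3cr1, 2.42 for Gngt2 and 4.66 for Pglyrp1. In the wild-type library it was 1.70 for Spn, 1.20 for Cx3cr1, 2.04 for Gngt2 and 1.99 for Pglyrp1. Of these, Pglyrp1 differed most between the libraries, but it had only 3 UMIs in knock-in and 15 in wild-type Ly6c2 monocytes. Cd36 was at 403 CPM in knock-in and 252 CPM in wild-type members, against 5.87 CPM in knock-in and 8.12 CPM in wild-type Ly6c2 monocytes, so nearly all of its UMIs lay in the non-classical class. Fabp4, a fatty acid carrier, had 22 knock-in and 14 wild-type UMIs in members and 0 in Ly6c2 monocytes of either library. Set against a floor of 3 counts per library, it was at least 10.3-fold higher in the knock-in and at least 5.79-fold higher in the wild-type library. The low-affinity immunoglobulin G receptor gene Fcgr4 had 12 UMIs in the members of each library, against 0 in knock-in and 2 in wild-type Ly6c2 monocytes.

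Classical genes ran the other way. Of 20 listed, 15 were measured in both libraries, and 7 were lower past 2-fold in both: Ccr2, Fn1, F13a1, Chil3, Hp, Thbs1 and Lgals3. The median of the 15 was -1.27 in the knock-in and -0.94 in the wild-type library. Ccr2, the chemokine receptor by which classical monocytes leave the marrow, was at 49.4 CPM in knock-in and 50.4 CPM in wild-type members, against 358 CPM in knock-in and 244 CPM in wild-type Ly6c2 monocytes. Fn1, coding for fibronectin, had log2 ratios of -2.88 in the knock-in and -2.26 in the wild-type library. The members were the shallower cells. With every cell thinned to 1000 UMIs, 18 genes were higher and 12 lower past 2-fold in both libraries, of 368 measured.

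**Figure D2:**
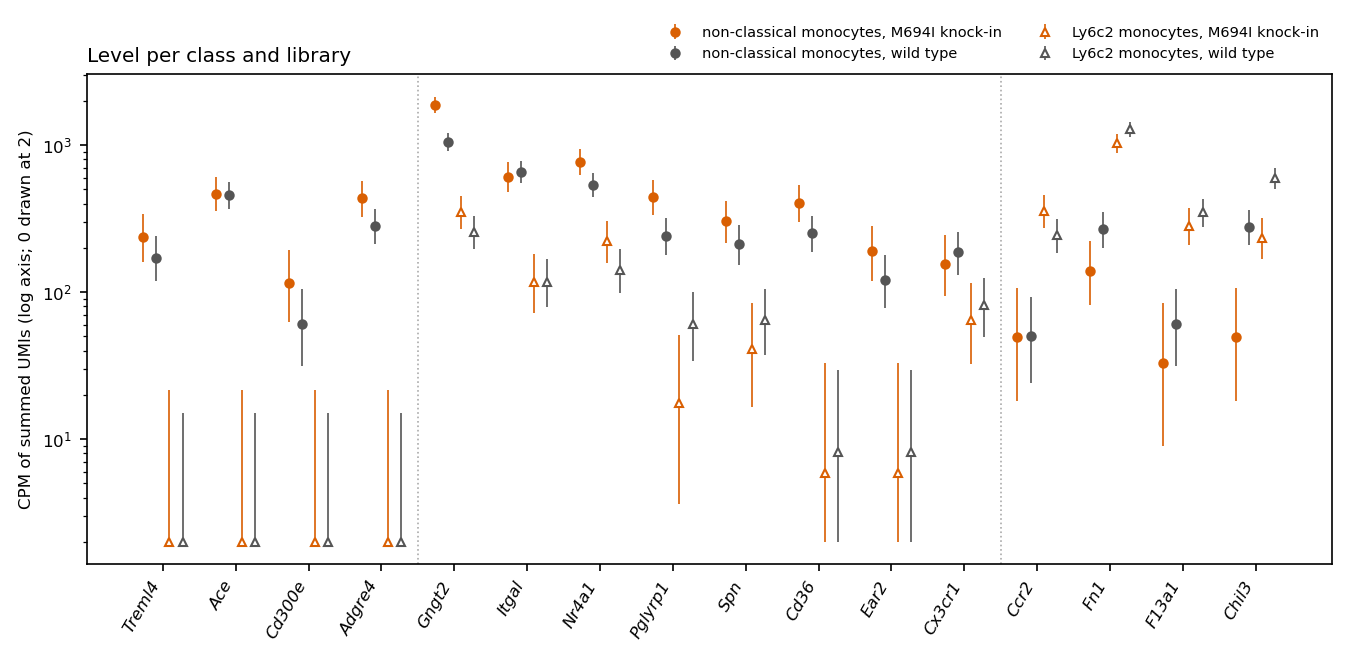
Levels in CPM (log axis, 0 drawn at 2) of the 4 rule genes, other non-classical genes and classical genes, separated by dotted lines, in non-classical and Ly6c2 monocytes of the knock-in and wild-type libraries. Points are sums per library and bars are Poisson 95% intervals; Cd36 lies between 252 and 403 CPM in members, against 5.87 to 8.12 CPM in Ly6c2 monocytes.

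Some genes outside these lists stood out by the rule for named genes, which ranks genes by the interval bound nearest 0 in the less extreme library. Tgm2, coding for a transglutaminase, was at 280 CPM in knock-in and 328 CPM in wild-type members, against 29.3 CPM in knock-in and 52.8 CPM in wild-type Ly6c2 monocytes, with log2 ratios of 3.25 in the knock-in and 2.63 in the wild-type library. Regulators among these genes were Cbfa2t3, a corepressor, Sgk1, a kinase, and Grk3, which desensitises G protein-coupled receptors. In the knock-in library the log2 ratio was 3.17 for Cbfa2t3, 2.29 for Sgk1 and 2.07 for Grk3, and in the wild-type library 1.85 for Cbfa2t3, 1.47 for Sgk1 and 1.70 for Grk3. Genes of the actin cortex were Marcks, the actin-bundling gene Lcp1 and the membrane myosin gene Myo1g. Their log2 ratios in the knock-in library were 1.40 for Marcks, 1.31 for Lcp1 and 1.49 for Myo1g, and in the wild-type library 1.51 for Marcks, 1.19 for Lcp1 and 1.34 for Myo1g. The calcium-binding gene Efhd2 had 1.52 in the knock-in and 1.02 in the wild-type library. The nuclear RNA Malat1 had 1.64 in the knock-in and 1.02 in the wild-type library, and Neat1, another, had 1.38 in the knock-in and 0.89 in the wild-type library. Dusp16, a phosphatase gene of MAP kinases, had 36 UMIs in knock-in members and 0 in knock-in Ly6c2 monocytes, at least 16.8-fold higher, and a log2 ratio of 1.55 in the wild-type library.

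Genes lower in the non-classical class included Vim, coding for the filament protein vimentin, Anxa1, coding for an annexin, and the actin-capping gene Capg. In the knock-in library the log2 ratio was -1.68 for Vim, -1.66 for Anxa1 and -1.73 for Capg, and in the wild-type library -1.30 for Vim, -1.63 for Anxa1 and -1.53 for Capg. Cd14, the lipopolysaccharide co-receptor, had -1.31 in the knock-in and -1.12 in the wild-type library. Alox5ap, needed to make leukotrienes, had -1.02 in the knock-in and -0.80 in the wild-type library. Ifitm6, an interferon-induced transmembrane protein gene, had -1.31 in the knock-in and -1.25 in the wild-type library. None of the 30 genes named by that rule changed sign under any alternative that was run.

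**Figure D3:**
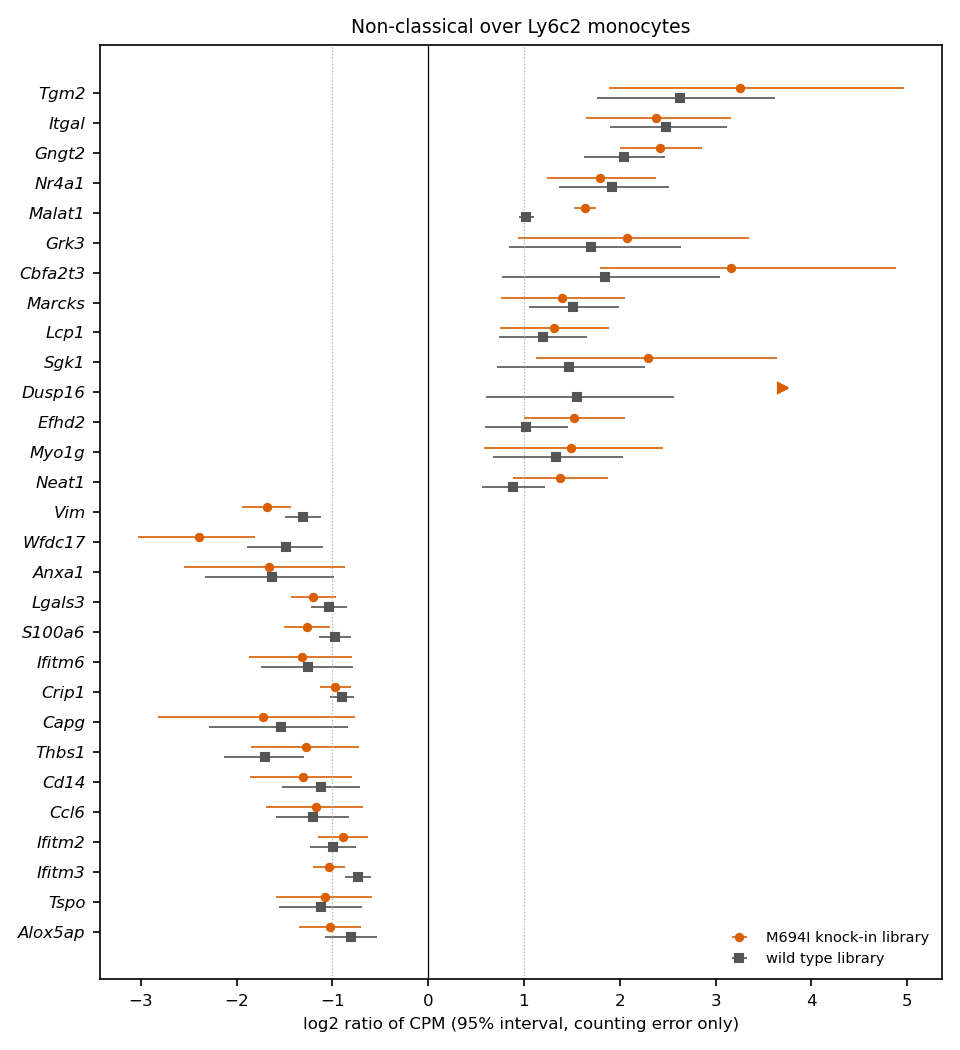
Log2 ratios of non-classical over Ly6c2 monocytes for 29 of the 30 genes named by rule, with 95% counting intervals, in the knock-in and wild-type libraries. All 29 lie on the same side of 0 in both libraries, for example Tgm2 at 3.25 in the knock-in and 2.63 in the wild-type library, and Wfdc17 at -2.39 in the knock-in and -1.49 in the wild-type library. The arrow marks the lower interval bound of Dusp16 in the knock-in library, where Ly6c2 monocytes had 0 UMIs.

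Further lists were compared between the classes in the same way. Of 13 adhesion and trafficking genes measured in both libraries, 6 were higher past 2-fold in each (Cx3cr1, Itgal, Itgb1, Spn, Cxcr4 and Cd9) and Ccr2 was lower. Over all genes measured in both, 3.29% were higher and 2.26% lower. Of 10 survival genes, the anti-apoptotic genes Bcl2a1b and Bcl2a1d were higher, a pair of near-identical copies between which reads can be split. Bcl2 itself had 14 UMIs in knock-in members and 13 in wild-type members, against 0 in knock-in and 4 in wild-type Ly6c2 monocytes. Of 17 transcription factors, Nr4a1 and Id2 were higher in both libraries. Among the 17, Pou2f2 had 2.18 in the knock-in and 0.86 in the wild-type library. The factor gene Tcf7l2 fell below the limits for measured genes and was not among the 17. Its log2 ratios of 3.07 in the knock-in and 3.25 in the wild-type library come from counts under those limits, so their size is uncertain. Of 6 lipid-handling genes, the cholesterol exporter gene Abcg1 and the lipid droplet gene Plin2 were higher in both libraries. Of 7 type I interferon genes, Bst2 was lower in both, and their median was -0.96 in the knock-in and -0.051 in the wild-type library.

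Promoters of the rule genes and of the genes higher in the class were read for the core letters of a PU.1 site, since PU.1 is the factor that sets up the monocyte lineage. RefSeq gave the 250 bases before the start, on GRCm38.p6, for 12 of 19 such genes, and 4 of the 12 held GAGGAAG on either strand. The 4 windows are shown because they are the ones with a match, 1 for a gene of the rule and 3 for genes named above. Each runs 5' to 3' on the strand of its gene and ends at the base before the start. Capitals mark GAGGAAG, or CTTCCTC where the match lies on the other strand.
Ace, chr11:105967698-105967947, plus strand: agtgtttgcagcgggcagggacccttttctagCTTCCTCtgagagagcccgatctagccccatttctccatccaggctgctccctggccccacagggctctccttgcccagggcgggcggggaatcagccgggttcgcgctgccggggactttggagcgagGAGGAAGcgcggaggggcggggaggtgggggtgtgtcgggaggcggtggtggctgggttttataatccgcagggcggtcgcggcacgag
Cbfa2t3, chr8:122699110-122699359, minus strand: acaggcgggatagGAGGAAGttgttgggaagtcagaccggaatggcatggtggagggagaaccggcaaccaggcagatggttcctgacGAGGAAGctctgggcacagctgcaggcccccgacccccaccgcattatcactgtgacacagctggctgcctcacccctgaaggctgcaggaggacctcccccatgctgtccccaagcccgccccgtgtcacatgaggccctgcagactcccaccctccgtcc
Sgk1, chr10:21881934-21882183, plus strand: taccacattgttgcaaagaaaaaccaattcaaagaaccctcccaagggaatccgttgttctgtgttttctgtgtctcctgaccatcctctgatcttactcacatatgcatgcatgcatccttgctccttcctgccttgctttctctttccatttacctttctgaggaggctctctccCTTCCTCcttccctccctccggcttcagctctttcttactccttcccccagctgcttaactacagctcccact
Efhd2, chr4:141874921-141875170, minus strand: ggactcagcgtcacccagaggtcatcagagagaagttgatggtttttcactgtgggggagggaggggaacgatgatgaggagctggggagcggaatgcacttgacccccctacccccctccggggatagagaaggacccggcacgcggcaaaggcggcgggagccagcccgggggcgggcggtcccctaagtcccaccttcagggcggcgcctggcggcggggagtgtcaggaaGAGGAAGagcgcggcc

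Ace and Cbfa2t3 each held 2 matches, and Sgk1 and Efhd2 held 1 each, the match of Efhd2 beginning 16 bases before the start. Among the 45 genes higher in the non-classical class, 37 had a RefSeq promoter and 9 of those (24.3%) held the letters. Among the 31 lower genes, 4 of 22 (18.2%) did, against 121 of 1082 (11.2%) over the genes measured in both libraries and 2807 of 27025 (10.4%) over all promoters. A C/EBP pattern, TTGCNNAA, was found in 3 of 37 (8.11%) of the higher genes and 9.55% of all promoters. The binding element of NR4A1, AAAGGTCA, was found in 0 of 37 of the higher and 2 of 22 (9.09%) of the lower genes, and in 1.31% of all promoters. These are matches of letters in a short window and describe no binding.

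The second question was whether knock-in non-classical monocytes differ from wild-type ones. Over 1645 measured genes the median log2 ratio of knock-in over wild type was -0.01, with 50 (3.04%) higher and 71 (4.32%) lower past 2-fold. With TMM scaling, which lowered all ratios by 0.12, 35 were higher and 97 lower. Among Ly6c2 monocytes 44 of 1936 genes (2.27%) were higher and 83 (4.29%) lower, so the share of genes past 2-fold was of like size in both classes. With wild-type UMIs thinned to the knock-in depth, 42 of 1328 measured genes (3.16%) were lower in the non-classical class.

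Genes of the non-classical programme leaned towards the knock-in. Of 24 listed genes, 21 were measured, with a median log2 ratio of 0.52 beside -0.01 for all genes. Only Eno3, Fabp4 and Apoc2 were past 2-fold, all 3 higher, and the interval lay above 0 for 9 and below 0 for none. Over all measured genes it lay above 0 for 154 (9.36%) and below 0 for 135 (8.21%). The same list had a median of -0.03 in Ly6c2 monocytes. The median was 0.45 with wild-type UMIs thinned to the knock-in depth and 0.59 without the members of 5 or more H2-Aa UMIs, and it stayed between 0.15 and 0.60 over all alternatives. Whether a second pair of animals would show this could not be examined.

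Gngt2 had 229 UMIs in knock-in and 209 in wild-type members, or 1884 CPM in the knock-in and 1053 CPM in the wild type, a log2 ratio of 0.84 (0.56 to 1.12). It was found in 43 of 46 knock-in and 45 of 52 wild-type cells, so most cells of both genotypes carried it. Nr4a1 was at 773 CPM in the knock-in and 539 CPM in the wild type, a log2 ratio of 0.52 (0.11 to 0.93), which was -0.10 with every cell thinned to 1000 UMIs. Cebpb, a transcription factor that non-classical monocytes need, was at 3604 CPM in the knock-in and 2741 CPM in the wild type, a log2 ratio of 0.39 (0.21 to 0.58). Pglyrp1 had 0.88 (0.29 to 1.47), Clec4a1, a C-type lectin receptor gene, 0.93 (0.18 to 1.68), and Cd36 0.68 (0.08 to 1.28). Apoc2, the cofactor of lipoprotein lipase, was at 683 CPM in the knock-in and 287 CPM in the wild type, a log2 ratio of 1.25 (0.75 to 1.76). Others stayed level within counting error: Itgal had -0.12, Cx3cr1 -0.25, Csf1r 0.11, Pou2f2 0.08 and Klf2 -0.01.

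Among the 12 genes that the naming rule placed highest in the knock-in were 2 of that list, Gngt2 and Apoc2. Fcer1g, the signalling chain shared by activating Fc receptors, was at 4229 CPM in knock-in and 2454 CPM in wild-type members, a log2 ratio of 0.79 (0.60 to 0.97), against 0.17 in Ly6c2 monocytes. It was found in 45 of 46 knock-in and 51 of 52 wild-type cells. Slc12a2, an ion cotransporter gene, had 30 UMIs in 17 knock-in cells and 13 UMIs in 9 wild-type cells, a log2 ratio of 1.91 (0.93 to 2.98). No Slc12a2 UMI was seen in Ly6c2 monocytes of either library. Cd9, a tetraspanin gene, had 1.16 (0.62 to 1.70) in members and 2.12 in Ly6c2 monocytes. The rest were Pfn1 (profilin, 0.85), the growth-restraining gene Btg2 (1.28), the mitochondrial fission gene Fis1 (1.10), Smpdl3b (1.59), the splicing factor gene Sf3b6 (1.27), Havcr2, coding for the checkpoint receptor TIM-3 (1.34), and Aurkaip1 (1.44).

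Mt1, a metal-binding metallothionein gene, led the genes lower in the knock-in. It had 18 UMIs in 12 knock-in members and 90 UMIs in 23 wild-type members, or 148 CPM in the knock-in and 454 CPM in the wild type, a log2 ratio of -1.61 (-2.43 to -0.87), and -1.02 in Ly6c2 monocytes. Klf6, a zinc finger transcription factor gene, had 35 UMIs in the knock-in and 136 in the wild type, a log2 ratio of -1.25, which shrank to -0.54 without the members of 5 or more H2-Aa UMIs. Dusp1, a MAP kinase phosphatase gene, went likewise, at -1.02 with those members and -0.41 without them. The galectin gene Lgals1 had 10 UMIs in the knock-in and 48 in the wild type, a log2 ratio of -1.56, beside 0.75 in Ly6c2 monocytes. The calcium-binding gene S100a4 had -0.75, the lysosomal protease gene Lgmn -1.16 and the scaffold gene Ahnak -0.88. Zfp91 (-1.74), Eif1a (-2.02), Atrx (-1.84), Tor1aip1 (-1.45) and Fam49a (-1.38) completed the 12, each with at most 12 knock-in UMIs. None of the 24 named genes changed sign under any alternative that was run.

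**Figure D4:**
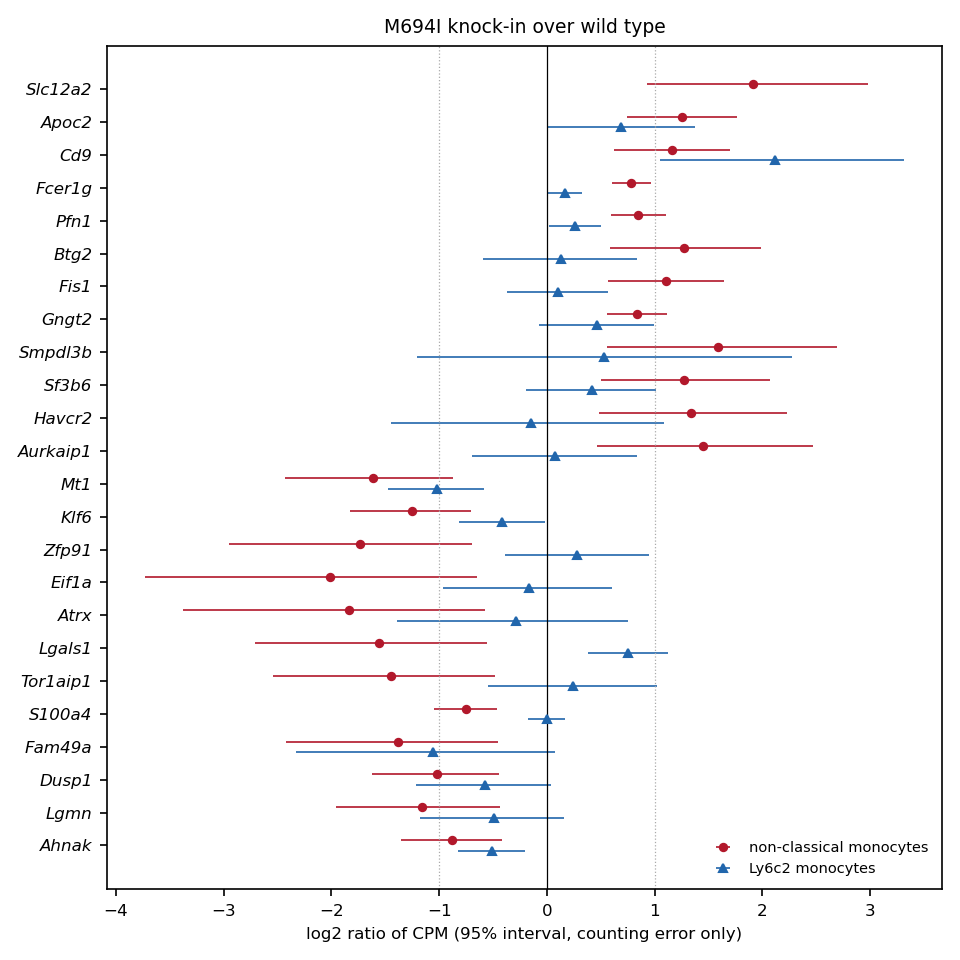
Log2 ratios (knock-in over wild type) of the 24 genes named by rule, with 95% counting intervals, in non-classical and Ly6c2 monocytes. In non-classical monocytes they run from Slc12a2 at 1.91 to Eif1a at -2.02; Lgals1 lies on opposite sides of 0 in the 2 classes.

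Of 20 listed classical genes 13 were measured, with a median of -0.10. The interval lay above 0 for 1 and below 0 for 4 of them, and 8 had a ratio below 0. Over all measured genes it lay above 0 for 9.36% and below 0 for 8.21%. The list's median ran from -1.001, among members with a rule sum of at least 3, to 0.075 over the alternatives, and so fell on both sides of 0. Hp was higher in the knock-in (1.43, 0.51 to 2.39) and Chil3 lower, with 6 knock-in and 55 wild-type UMIs and a log2 ratio of -2.49. Chil3 was also lower in knock-in Ly6c2 monocytes, at 40 UMIs against 147 in the wild type and a log2 ratio of -1.35. Fn1 was at 140 CPM in the knock-in and 267 CPM in the wild type, a log2 ratio of -0.93 (-1.81 to -0.12).

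The series' title names interferon responses and inflammatory pathways, and both lists were sparse in these cells. Of 50 listed type I interferon genes in the files only 8 were measured, with a median log2 ratio of -0.23 in non-classical and -0.03 in Ly6c2 monocytes. Irf9, a subunit of the factor that switches these genes on, was the only one past 2-fold, at 6 knock-in and 25 wild-type UMIs and a log2 ratio of -1.35. The intervals of Ifi207 (-0.86) and Slfn2 (-0.70) also lay below 0, and that of none lay above. Over all measured genes the interval lay below 0 for 8.21% and above 0 for 9.36%. The type I list's median ran from -0.93, with a rule sum of at least 3, to -0.021, with no filter on low values. Of 27 interferon gamma genes 6 were measured, with a median of 0.36. Of these, 5 had a ratio above 0 and 1 below. Psmb9, a subunit of the immunoproteasome, was past 2-fold at 1.27 (0.38 to 2.19). Irf1 was the gene below 0, between -0.68 and -0.25 over the alternatives. Class I genes had a median of 0.33 over 6 measured genes, with H2-D1 at 0.46 and H2-T23 at 0.67.

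Of 22 inflammasome and IL-1 genes 7 were measured, with a median of -0.18 that ran from -0.39 to 0.094 over the alternatives. Il1r2, the decoy receptor for interleukin-1, had 3 UMIs in knock-in and 30 in wild-type members, a log2 ratio of -2.61 (-4.97 to -0.93). In Ly6c2 monocytes Il1r2 lay the other way, at 53 knock-in and 40 wild-type UMIs. Il1b had 25 knock-in and 52 wild-type UMIs, a log2 ratio of -0.35 (-1.10 to 0.37), and the adaptor gene Pycard had -0.18 (-1.27 to 0.85). Rhoa, the GTPase that pyrin senses through its loss of activity, was at 1127 CPM in the knock-in and 847 CPM in the wild type, a log2 ratio of 0.41 (0.08 to 0.75).

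The NF-kB and TNF list had a median of -0.52 over 12 measured genes of 22, with 3 lower past 2-fold and none higher. Over all measured genes 4.32% were lower and 3.04% higher past 2-fold. In Ly6c2 monocytes the list's median was 0.53. The inhibitor gene Nfkbia had -0.50, Cd83 -0.57 and Birc3 -1.06. The chemokine genes Ccl4 and Ccl3 rested on few cells. Ccl4 had 1 knock-in and 47 wild-type UMIs, with 89.4% of the wild-type UMIs in 1 cell, and Ccl3 had 3 knock-in and 31 wild-type UMIs, with 74.2% of the wild-type UMIs in 1 cell. Without the members of 5 or more H2-Aa UMIs the list's median was -0.077. Of 18 immediate early and stress genes, Btg2 was higher and Jun, Dusp1, Hspa1a and Hspa1b were lower past 2-fold. Hspa1a had 2 knock-in and 45 wild-type UMIs, with 91.1% of the wild-type UMIs in 1 cell. Hspa1b had 1 knock-in and 37 wild-type UMIs, with 94.6% of the wild-type UMIs in 1 cell. Jun went to 0.045 without the members of 5 or more H2-Aa UMIs, against -1.29 with them. The NF-kB median and the value of Jun thus moved when 7 knock-in and 8 wild-type cells were left out. That exclusion also lowered the measured genes of all kinds from 1645 to 1143, so both medians can cover different genes of the list.

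Class II genes had a median log2 ratio of knock-in over wild type of 0.25 in non-classical monocytes, and of -0.33 without the members of 5 or more H2-Aa UMIs. Leaving those cells out removes class II UMIs by construction. Cd74, the class II chaperone gene, had 0.62 with them and -0.45 without them. In Ly6c2 monocytes the list's median was 1.77. That class held more cells of 5 or more H2-Aa UMIs in the knock-in, 9 of 36 against 5 of 45 in the wild type, and its conventional dendritic markers were at 434 CPM in the knock-in and 211 CPM in the wild type. The part of these cells in the Ly6c2 values was not tested. Between classes, Cd74 had a log2 ratio of 0.11 in the knock-in and 1.28 in the wild-type library.

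**Figure D5:**
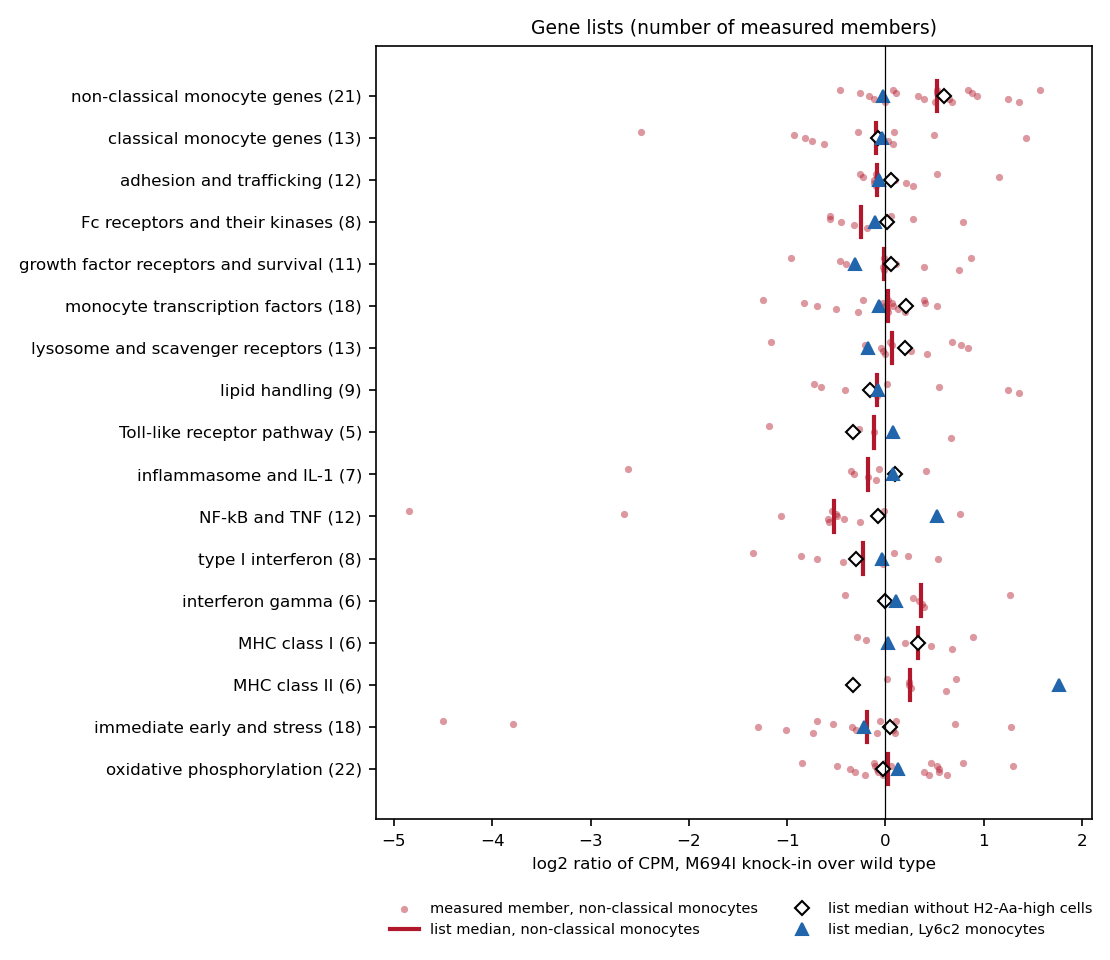
Median log2 ratio of each gene list, knock-in over wild type, in non-classical and Ly6c2 monocytes, with each measured gene as a small point and open diamonds for the median without members of 5 or more H2-Aa UMIs; lists with at least 5 measured genes are drawn. In non-classical monocytes the list of non-classical genes has the highest median, 0.52, and the NF-kB and TNF list the lowest, -0.52.

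Lists of basic cell functions stayed near the all-gene median. The median was 0.02 for 22 oxidative phosphorylation genes, 0.02 for 18 transcription factors, -0.02 for 11 survival genes and 0.06 for 13 lysosomal genes. Within the lysosomal list, the protease inhibitor gene Cst3 was higher (0.77) and Lgmn lower (-1.16). Within the lipid list, with a median of -0.09 over 9 genes, Apoc2, Fabp4 (1.36) and Apoe (0.54) were higher and the cholesterol carrier gene Npc2 (-0.66) lower, each with an interval on one side of 0. The Fc receptor list had a median of -0.25 over 8 genes despite the higher Fcer1g. Adhesion genes had -0.09 over 12 genes, and the Toll-like receptor list -0.12 over 5. No complement gene was measured.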

How the data were processed

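The authors deposited unnormalized UMI counts for each gene in each barcode. Per the file headers the counts came from Cell Ranger 6.1.2, whereas Cell Ranger 7.1.0 stands in the submitters' processing notes, beside Seurat 5.0.3 and mm10. For the annotation and the selection of barcodes, the method is not given in the sources used here. Limits on UMIs and genes removed 21 knock-in and 48 wild-type barcodes, and the mitochondrial limit 396 and 668. Doublets were called with Scrublet in scanpy 1.11.5 (expected rate 0.08, score threshold 0.25), which marked 488 knock-in and 594 wild-type cells. These were removed only in an alternative.

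Sums of UMIs per library and class were scaled to CPM, and log2 ratios were taken, with knock-in over wild type and non-classical over Ly6c2 within a library. Ratios carry exact conditional binomial intervals, levels exact Poisson intervals and shares Clopper-Pearson intervals, at 95%. The depth of a class is the summed UMI count given in the text. Cells are not replicates, so no p-value was computed. Genes were measured at a mean of at least 50 CPM and at least 30 UMIs, and called past a log2 ratio of 1. Where a sum was 0, a bound was computed against a floor of 3 counts per library. Log2 ratios and counting intervals were tested on simulated sums, drawn with no variation between cells or animals.

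The named genes between genotypes were those with at most 25% of either library's UMIs in 1 cell, the 12 with the highest lower bound and the 12 with the lowest upper bound. Between classes they were the 15 highest and 15 lowest bounds nearest 0 in the less extreme library, leaving out genes of the gates. Mitochondrial, ribosomal protein, haemoglobin, antigen receptor and sex-linked genes were left out of the naming. Ly6c2 monocytes also had no Ncr1 or Klrb1c UMI and under 5 Jchain UMIs. Members, gene lists and tests were chosen with earlier results of these data known. The alternatives changed the mitochondrial, UMI and gene limits, doublets, the rule's thresholds, depth, scaling, cell weights and the filter on low values. Measured genes were chosen anew under each, so counts and list medians can cover different genes. Promoters came from RefSeq tables and gene positions from the GENCODE M21 annotation, both of GRCm38, which is mm10. Python 3.11.15, numpy 2.4.6, scipy 1.17.1, pandas 2.3.3, R 4.3.3 and edgeR 4.0.16, for TMM factors alone, were used. A few genes are not reported here.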

Additional observations from a re-analysis of the deposited data

Results flagged for a closer look

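The log2 ratio of knock-in over wild type for Ccl4, a chemokine gene, was -4.85 in non-classical monocytes and 1.02 in Ly6c2 monocytes, so that the classes moved in opposite directions. The difference between the classes was not tested. In non-classical monocytes 42 of the 47 wild-type UMIs (89.4%) came from 1 cell.

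The NF-kB and TNF list had a median log2 ratio of -0.52 in non-classical and 0.53 in Ly6c2 monocytes, again in opposite directions. This difference was not tested either. The median in non-classical monocytes was -0.19 without members that had a UMI of Flt3, Xcr1, Clec9a or Cd209a, and -0.077 without members with 5 or more H2-Aa UMIs. It was -1.02 with every cell thinned to 1000 UMIs. Measured genes were chosen anew under each alternative, so these medians can cover different genes of the list.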

How the results depend on the processing

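The share of non-classical monocytes, their number per Ly6c2 monocyte and the type I interferon and inflammasome medians moved by less than their counting interval or spread under every alternative; the log2 ratio of the shares ran from -0.33 to 0.21. Counts of genes depended on depth and on the filter. The number of genes measured changed as well, so each count is given with its total. Of 1645 genes, 50 (3.04%) were higher in knock-in non-classical monocytes. This became 6 of 469 with cells thinned to 1000 UMIs and 76 of 1645 (4.62%) with cells weighted equally. With no filter on low values it was 977 of 7243 (13.5%). The 71 lower genes (4.32%) became 41 of 1300 (3.15%) without members with dendritic cell UMIs, 19 of 469 thinned and 838 of 7243 (11.6%) with no filter. They became 42 of 1328 (3.16%) with wild-type UMIs thinned to the knock-in depth. Without members with 5 or more H2-Aa UMIs they became 30 of 1143. Between classes, the 45 higher genes of 1369 became 18 of 368 thinned, 26 of 1141 without the highest cell of each gene and 322 of 6336 with no filter. The 31 lower genes of 1369 became 49 of 1193 without members with a Ly6c2 UMI and 12 of 368 thinned. They became 53 of 1369 with cells weighted equally and 179 of 6336 with no filter. Thinned, 469 genes were measured between genotypes, against 1645, and 1.28% were higher and 4.05% lower; without members with 5 or more H2-Aa UMIs, 3.85% were higher and 2.62% lower. The cause of these shifts was not tested. Depth matching and the H2-Aa exclusion were chosen after seeing the data. Reversals were few. With wild-type UMIs thinned to the knock-in depth, Hspa1b was at 0.22 (knock-in over wild type), against -4.50. Before thinning it had 1 knock-in and 37 wild-type UMIs, with 35 of the wild-type UMIs in 1 cell. After thinning 45 wild-type cells met the rule, against 52. Without members with 5 or more H2-Aa UMIs, Ccl3 was at 2.32, against -2.66, and Jun at 0.045, against -1.29. Before the exclusion Ccl3 had 3 knock-in and 31 wild-type UMIs, with 23 of the wild-type UMIs in 1 cell. The same exclusion left Ly6c2 monocytes with such counts (9 in the knock-in, 5 in the wild type) in place, so that it lowers class II ratios by construction: non-classical over Ly6c2 in the wild-type library was -1.33 for H2-Ab1, against 1.73, -1.95 for H2-Eb1, against 2.30, and -0.64 for Cd74, against 1.28. The cause of the reversals of Hspa1b, Ccl3 and Jun was not tested. Values of single genes under alternatives were not held to the limits for measured genes, and those of Hspa1b and Ccl3 rest on few UMIs. Among single genes and lists, 4130 values under alternatives stayed within their interval, 291 moved and 6 reversed. No paired analysis was possible because each genotype has 1 library. With 46 and 52 cells, a gene needed about 30 UMIs to be measured, which left most interferon and inflammasome genes unmeasured.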

Other observations

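Immunoglobulin transcripts made up 0.133% of the UMIs of knock-in members and 0.0237% of those of wild-type members, or 162 UMIs in the knock-in and 47 in the wild type. Of the 162 knock-in UMIs, 109 came from 1 cell. Haemoglobin genes had 19 UMIs in knock-in and 6 in wild-type members. Ribosomal protein genes took 21.5% of UMIs in knock-in and 23.1% in wild-type members, and mitochondrial genes 2.58% in the knock-in and 3.09% in the wild type.

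Several cells missed the rule by 1 limit. A lymphocyte UMI alone kept out 13 knock-in and 27 wild-type cells, in which the 12 non-classical genes outside the rule were at 1304 CPM in the knock-in and 3314 CPM in the wild type. A missing Lyz2 UMI alone kept out 8 knock-in and 4 wild-type cells, with 2957 CPM in the knock-in and 6047 CPM in the wild type. Members with at least 3 of the 4 rule genes, 11 in the knock-in and 16 in the wild type, were at 7926 CPM in the knock-in and 4326 CPM in the wild type.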
